A study of Mus musculus with 54 samples.

Results

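The 9 genes described here encode transcription factors that specify and maintain the hepatocyte, namely Foxa1, Foxa2, Foxa3, Hnf4a, Onecut1, Cebpa, Prox1, Nr5a2 and Nr1h4. They were taken by gene name from the tables of normalized counts of liver and heart, which list 54356 genes each. All 9 members were found, and with a mean of 10 or more normalized counts required in a tissue, 9 of 9 were tested in the liver and 5 of 9 in the heart. The mice were 20-week-old C57BL/6 mice fed a high-fat diet (HFD), 3 of each genotype. Mrps12+/+ mice were the controls, Mrps12ep/ep mice were homozygous for an error-prone mutation of the mitochondrial ribosomal protein MRPS12, and Mrps12ha/ha mice were homozygous for a hyper-accurate mutation of the same protein. The diet was shared by all 3 genotypes, so the comparisons speak of genotype on the HFD and not of the diet. The mutations were carried in the germ line and not restricted to the liver or heart.

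Hepatocyte identity rests on a network of factors that bind each other's promoters and shared enhancers. FOXA1, FOXA2 and FOXA3 are forkhead pioneer factors that open chromatin at liver enhancers, and FOXA2 is also known for its part in fasting metabolism and bile acid handling. HNF4A is the nuclear receptor most widely bound at hepatocyte genes, HNF6 (Onecut1) and C/EBPalpha (Cebpa) act with it, and PROX1 restrains part of its output. LRH-1 (Nr5a2) and FXR (Nr1h4) are nuclear receptors that control bile acid synthesis and transport.

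A liver held 21238039 to 81518262 recovered reads and a heart 11202866 to 51480271, the shallowest being Mrps12ha/ha mouse 1 in the liver and Mrps12ha/ha mouse 2 in the heart. Precision from counting was thus lowest in those libraries. Mrps12 RNA itself differed little between genotypes, with means of 1651, 1756 and 1796 normalized counts in Mrps12+/+, Mrps12ep/ep and Mrps12ha/ha livers, and a point mutation need not alter it. Several livers stood apart in markers of other tissues or states. The summed count of 10 skeletal muscle markers was 27780 and 34973 in Mrps12+/+ mice 1 and 2 and 45 to 222 in the other livers. The summed count of 10 acute phase genes was 2271203 in Mrps12+/+ mouse 3 and 332841 to 479593 in the others. The summed count of 10 cardiomyocyte markers was 7366 in Mrps12ha/ha mouse 3 and 39 to 779 elsewhere. For the members with the largest differences, values without each of these mice are given beside the result.

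Foxa2 RNA had its highest values in Mrps12ha/ha livers. Foxa2 (ENSMUSG00000037025.11) lies on the minus strand at chr2:148042877-148046969 of GRCm38. Its normalized counts were 814.4, 1098.1 and 929.4 in the Mrps12+/+ livers, 1243.3, 1153.5 and 1615.7 in the Mrps12ep/ep livers and 1761.2, 2749.2 and 2062.8 in the Mrps12ha/ha livers. The 3 genotypes did not overlap, with every Mrps12ep/ep liver between the Mrps12+/+ and the Mrps12ha/ha livers. Mrps12ha/ha livers had 2191 ± 506 and Mrps12+/+ livers 947 ± 143 normalized counts (SD, n = 3). The difference on the log2 scale was 1.19 with a standard error of 0.19 and a 95% interval of 0.76 to 1.63. The limma p was 1.28e-04 before and 0.0722 after Benjamini-Hochberg adjustment, so that the difference exceeded the spread between mice for this gene alone but did not pass the threshold of 0.05 over all genes. Foxa2 ranked 26 by p among the 15314 genes tested in this comparison. The two-sided exact permutation p was 0.1, the smallest that 3 mice against 3 can give. Without Mrps12+/+ mouse 2 the adjusted p was 0.0483 and without Mrps12ha/ha mouse 3 it was 0.279, the lowest and highest over the alternatives. The log2 fold change lay between 1.02 and 1.34 in all of them, and it was 1.09 without Mrps12+/+ mouse 1, 1.31 without mouse 2, 1.19 without mouse 3, the acute phase liver, and 1.23 without Mrps12ha/ha mouse 3. Because these are whole pieces of tissue, fewer cells of a type and less RNA per cell cannot be told apart.

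Cebpa had the next largest difference. C/EBPalpha drives genes of gluconeogenesis, glycogen storage and lipogenesis, and Cebpa (ENSMUSG00000034957.10) is at chr7:35119293-35121928. Its normalized counts were 8165.4, 12004.8 and 7652.9 in Mrps12+/+, 10500.8, 11768.7 and 13361.0 in Mrps12ep/ep and 16189.0, 20125.9 and 18358.5 in Mrps12ha/ha livers. All 3 Mrps12ha/ha livers lay above the other 6, whereas Mrps12ep/ep and Mrps12+/+ livers overlapped. The means were 18224 ± 1972 in Mrps12ha/ha and 9274 ± 2378 in Mrps12+/+ livers (SD, n = 3). The log2 difference was 1.0 with a standard error of 0.18 and a 95% interval of 0.60 to 1.39, and the limma adjusted p was 0.0935. The adjusted p was 0.0321 without Mrps12+/+ mouse 2 and up to 0.321 without Mrps12ha/ha mouse 2. Without Mrps12+/+ mouse 1, 2 or 3 the log2 fold change was 0.92, 1.20 or 0.87, and without Mrps12ha/ha mouse 3 it was 0.99. Cebpa lies 6.38 Mb from Mrps12 and Foxa3 9.72 Mb from it on chromosome 7, while the other 7 members are on other chromosomes. Whether alleles linked to the mutated Mrps12 differ between these mice was not tested.

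Foxa1, the closest relative of Foxa2, also had its highest values in Mrps12ha/ha livers, with a smaller difference, while Mrps12ep/ep and Mrps12+/+ livers overlapped. Foxa1 (ENSMUSG00000035451.7, chr12:57540628-57546916) had 500.9, 654.2 and 563.4 normalized counts in Mrps12+/+, 605.2, 619.4 and 554.9 in Mrps12ep/ep and 675.9, 1049.7 and 768.4 in Mrps12ha/ha livers. The Mrps12ha/ha livers did not overlap with the other livers, but the lowest of them was close to the highest Mrps12+/+ liver. The log2 fold change between Mrps12ha/ha and Mrps12+/+ livers was 0.52 (standard error 0.17, limma adjusted p = 0.243), and without Mrps12ha/ha mouse 2 it was 0.34. Without Mrps12+/+ mouse 1, 2 or 3 it was 0.43, 0.62 or 0.51, and without Mrps12ha/ha mouse 3 it was 0.56. Foxa3 (ENSMUSG00000040891.6, chr7:19013284-19023538), the third FOXA gene, which is expressed in the differentiated liver, did not follow. Its normalized counts ranged from 2356 to 2948 in Mrps12+/+, from 2189 to 3132 in Mrps12ep/ep and from 1978 to 2691 in Mrps12ha/ha livers. The groups overlapped, and the log2 fold change between Mrps12ha/ha and Mrps12+/+ livers was -0.11 with a 95% interval of -0.49 to 0.27. The interval of Foxa1, 0.13 to 0.91, overlapped with it, and the difference between the genes was not tested.

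**Figure D1:**
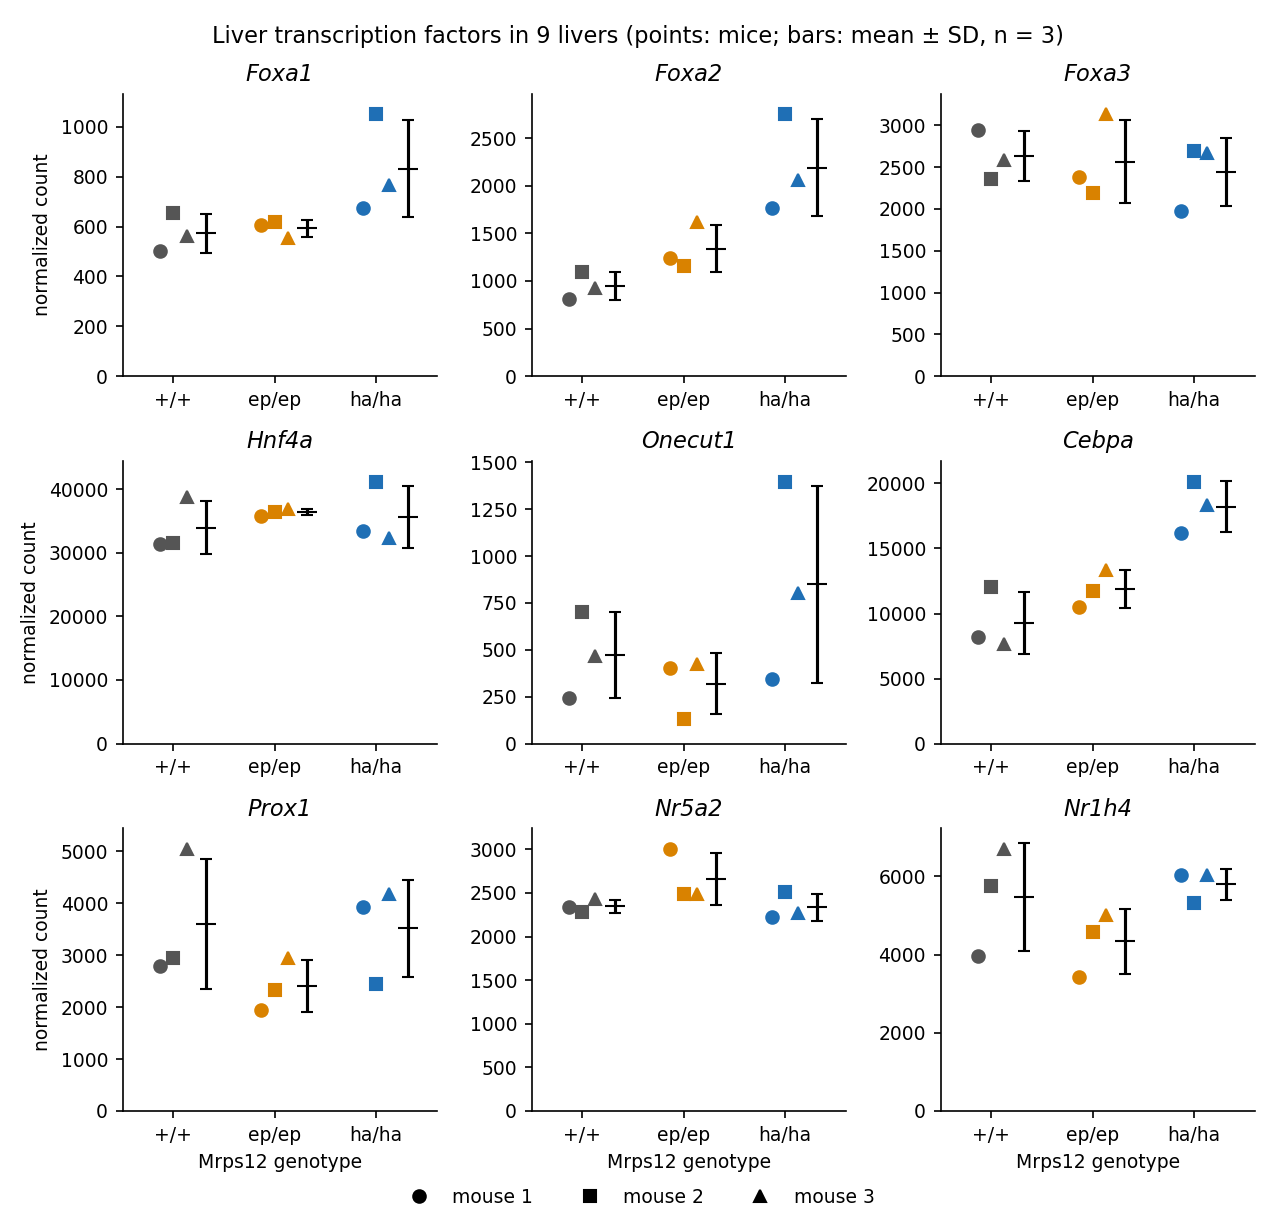
Normalized counts of the 9 factors in 9 livers, 1 panel per gene with the Mrps12 genotype on the horizontal axis; each point is a mouse, its shape the mouse number, and the black bar the mean ± SD of 3 mice. Mrps12ha/ha points lie above all Mrps12+/+ points for Foxa1, Foxa2 and Cebpa, and the genotypes overlap in the other panels except for Mrps12ep/ep against Mrps12+/+ in Nr5a2 and Mrps12ha/ha against Mrps12ep/ep in Nr1h4.

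The sequences just before the start sites of the 3 genes with the highest values in Mrps12ha/ha livers are shown. The Mrps12ha/ha mice came in the same order in these members. They are the 250 bases before the RefSeq start (GRCm38.p6), 5′ to 3′ on the strand of the gene, and for Foxa2 the outermost of its 3 starts was used. The RefSeq start of Foxa1 lies inside the gene as the GENCODE annotation gives it. All 9 members had an entry in the promoter table. Capitals mark matches to any of 7 short motifs searched on both strands, TGTTTAC and TATTTAC (forkhead factors), TTGCNNAA (C/EBP), CAAAGTCCA (HNF4), ATTGATT (HNF6), CACGTG (E-box) and TTATGTAA (D-box); the first 2 differ in 1 letter and none of the others contains another.
Foxa2, chr2:148046970-148047219, minus strand: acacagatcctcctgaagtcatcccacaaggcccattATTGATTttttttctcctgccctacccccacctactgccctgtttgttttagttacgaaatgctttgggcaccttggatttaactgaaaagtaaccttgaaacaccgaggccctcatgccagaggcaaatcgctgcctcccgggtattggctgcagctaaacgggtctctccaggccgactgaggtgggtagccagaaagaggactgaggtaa
Cebpa, chr7:35119043-35119292, plus strand: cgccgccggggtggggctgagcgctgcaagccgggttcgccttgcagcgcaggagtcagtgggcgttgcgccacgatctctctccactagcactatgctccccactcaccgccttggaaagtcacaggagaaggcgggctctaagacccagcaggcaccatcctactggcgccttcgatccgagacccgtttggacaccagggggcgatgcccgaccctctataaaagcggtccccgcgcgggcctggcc
Foxa1, chr12:57546112-57546361, minus strand: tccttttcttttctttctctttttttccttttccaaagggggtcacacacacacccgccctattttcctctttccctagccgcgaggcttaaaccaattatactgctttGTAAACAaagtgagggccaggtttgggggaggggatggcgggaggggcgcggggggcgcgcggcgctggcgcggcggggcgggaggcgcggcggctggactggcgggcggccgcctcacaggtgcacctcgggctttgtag
The Foxa2 window held 1 match, to the HNF6 letters, which 2.61% of all 32851 promoter windows of this length hold. The Foxa1 window held 1 match, to TGTTTAC on the opposite strand, which 3.17% of windows hold, and the Cebpa window held 0. TATTTAC was in 2.73% of windows, the C/EBP letters in 9.56%, the HNF4 letters in 0.384%, the E-box in 6.02% and the D-box in 0.819%. The windows of Foxa2, Cebpa and Foxa1 thus shared no motif of the 7, and their GC contents were 50.8%, 66.4% and 62.0%.

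Hnf4a had the highest level of the members and differed little between genotypes. Hnf4a (ENSMUSG00000017950.16, chr2:163506808-163572910) had 33934 ± 4152 normalized counts in Mrps12+/+, 36348 ± 480 in Mrps12ep/ep and 35614 ± 4832 in Mrps12ha/ha livers (SD, n = 3). The log2 fold change between Mrps12ha/ha and Mrps12+/+ livers was 0.07, with a 95% interval of -0.23 to 0.37. Its antisense transcript Hnf4aos, which the stranded libraries count apart from Hnf4a, had 65.8, 125.3 and 26.9 normalized counts in Mrps12+/+, 93.3, 161.2 and 75.5 in Mrps12ep/ep and 166.6, 184.3 and 101.9 in Mrps12ha/ha livers. These groups overlapped, with a log2 fold change of 1.25 between Mrps12ha/ha and Mrps12+/+ livers (limma adjusted p = 0.329).

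Onecut1 was the most variable member. Onecut1 (ENSMUSG00000043013.10, chr9:74861921-74891781), which encodes HNF6, had 243.5, 703.5 and 468.0 normalized counts in Mrps12+/+, 401.4, 130.1 and 421.7 in Mrps12ep/ep and 345.1, 1395.8 and 804.8 in Mrps12ha/ha livers. Mrps12ep/ep mouse 2 was lowest and Mrps12ha/ha mouse 2 highest, and no pair of genotypes was separated. Its log2 fold change between Mrps12ha/ha and Mrps12ep/ep livers was 1.38 (standard error 0.61, limma adjusted p = 0.580). Mrps12ha/ha mouse 2 had the highest value of all 9 livers for Foxa1, Foxa2, Hnf4a, Onecut1 and Cebpa, and without it the log2 fold change of Onecut1 between Mrps12ha/ha and Mrps12+/+ livers was 0.29 in place of 0.76. That liver also had the most reads, 81518262. Without Mrps12+/+ mouse 1, 2 or 3 the same log2 fold change of Onecut1 was 0.35, 1.11 or 0.82, and without Mrps12ha/ha mouse 3 it was 0.69.

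Prox1 and the 2 bile acid receptors showed no separation between Mrps12ha/ha and Mrps12+/+ livers. Prox1 (ENSMUSG00000010175.13, chr1:190118035-190170714) had 3593 ± 1254, 2411 ± 504 and 3517 ± 933 normalized counts in Mrps12+/+, Mrps12ep/ep and Mrps12ha/ha livers (SD, n = 3), the highest value being that of Mrps12+/+ mouse 3. Between Mrps12ha/ha and Mrps12+/+ livers its log2 fold change was -0.02 with all mice and 0.26 without that mouse. Prox1os, transcribed from the other strand, had 222 ± 66.4, 249 ± 54.6 and 267 ± 53.8. Nr5a2 (ENSMUSG00000026398.14, chr1:136842571-136960448) had 2340.3, 2276.3 and 2427.1 normalized counts in Mrps12+/+, 3000.9, 2484.1 and 2490.2 in Mrps12ep/ep and 2227.7, 2514.5 and 2269.7 in Mrps12ha/ha livers. The Mrps12ep/ep livers lay above the Mrps12+/+ livers by a narrow margin, with a log2 fold change of 0.17 (standard error 0.10, limma adjusted p = 0.585). Nr1h4 (ENSMUSG00000047638.15, chr10:89454234-89533585) ranged from 3965 to 6692 in Mrps12+/+, from 3414 to 5016 in Mrps12ep/ep and from 5329 to 6033 in Mrps12ha/ha livers. The 2 mutants did not overlap in Nr1h4, with a log2 fold change of 0.43 between them (standard error 0.20, limma adjusted p = 0.603).

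By limma, 0 of the 9 members had an adjusted p under 0.05 between Mrps12ha/ha and Mrps12+/+ livers, where 1 of 15314 genes did (0.00653%). The count was also 0 with limma-voom on the recovered reads. Without Mrps12+/+ mouse 2 it was 2, Foxa2 and Cebpa, and 90 genes in all passed. At an unadjusted p under 0.05 there were 3 members, all higher in Mrps12ha/ha livers, against 14.1% of all genes, 7.07% being higher and 7.05% lower. The same 3 members, Foxa1, Foxa2 and Cebpa, were those whose groups did not overlap, where 19.9% of all genes did not overlap and 10.0% did so with higher values in Mrps12ha/ha livers. The median log2 fold change was 0.11 over the members and -0.017 over all genes.

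In Mrps12ep/ep livers Foxa2 had the largest difference from the controls relative to its error. Between Mrps12ep/ep and Mrps12+/+ livers, 0 of 9 members passed by limma (0.00653% of all genes) and 0 by limma-voom. Foxa2 was the 1 member with an unadjusted p under 0.05, against 9.74% of all genes (4.62% higher), with a log2 fold change of 0.49 (standard error 0.19, limma adjusted p = 0.475). The groups did not overlap in 2 members, Foxa2 and Nr5a2, both higher in Mrps12ep/ep livers, where 12.8% of all genes did not overlap and 6.49% did so with higher values. The log2 fold change of Cebpa was 0.38, with a 95% interval of -0.02 to 0.77. Prox1, at -0.54, and Onecut1, at -0.62, had the lowest values, with intervals of -1.16 to 0.07 and -1.99 to 0.75.

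The direct comparison of the mutants used the same Mrps12ha/ha and Mrps12ep/ep livers as the comparisons with the controls. Between them 0 of 9 members passed by limma (0.00653% of all genes) and 0 by limma-voom, whereas 4 members, Foxa1, Foxa2, Onecut1 and Cebpa, had an unadjusted p under 0.05, against 8.62% of all genes. All 4 were higher in Mrps12ha/ha livers, where 4.17% of all genes were. The groups did not overlap in Foxa1, Foxa2, Cebpa and Nr1h4, 4 members, where 17.8% of all genes did not overlap and 8.82% did so with higher values in Mrps12ha/ha livers. The log2 fold change of Foxa2 was 0.70 (standard error 0.19, limma adjusted p = 0.417) and that of Cebpa 0.62 (standard error 0.18, limma adjusted p = 0.417).

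**Figure D2:**
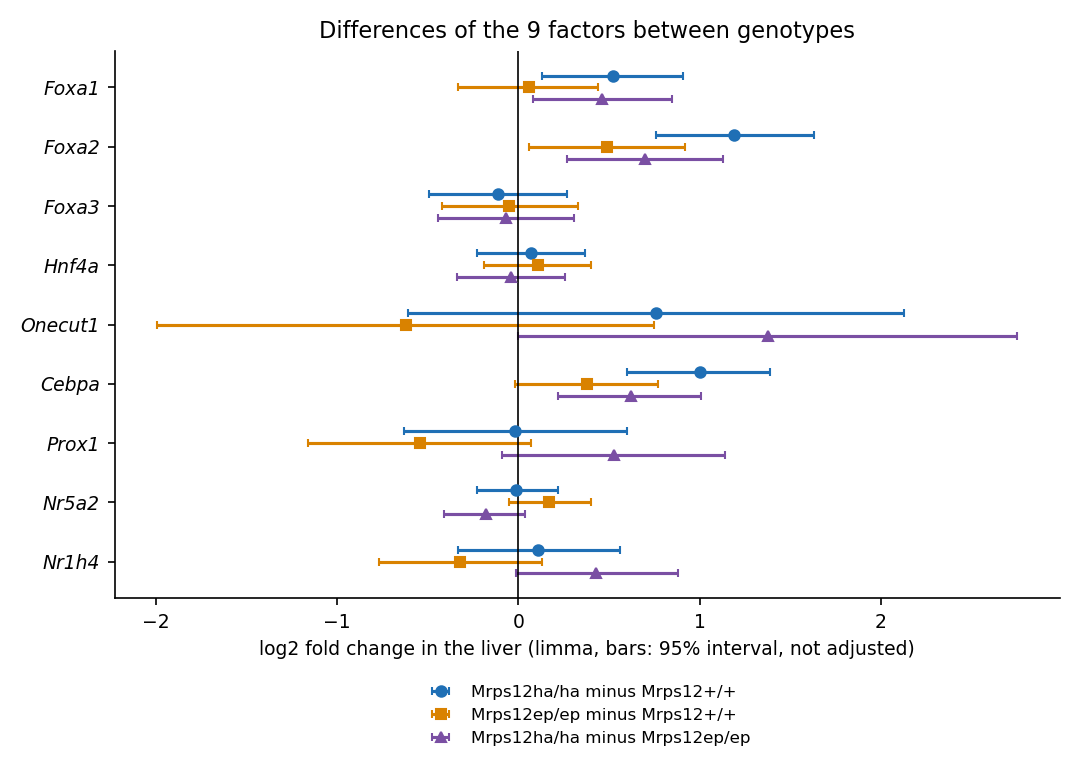
Log2 fold changes of the 9 factors between genotypes in the liver, from limma, with unadjusted 95% intervals as bars; each gene has 1 row and each comparison 1 colour and shape. The intervals of Foxa1, Foxa2 and Cebpa between Mrps12ha/ha and Mrps12+/+ livers lie above 0, those of Onecut1 are the widest, and no adjusted p was under 0.05.

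Levels were compared between genes per length of the union of their exons, as RPKM, the RPM of a gene (its recovered reads scaled by the library total) divided by its kilobases of exon. In the liver Hnf4a was highest at 141 ± 8.62 (SD, n = 9), followed by Cebpa at 95.6 ± 29.2, Nr1h4 at 43.5 ± 8.41, Foxa3 at 24.2 ± 3.67, Foxa2 at 12.0 ± 4.61, Nr5a2 at 8.02 ± 0.816, Prox1 at 7.30 ± 2.24, Foxa1 at 3.84 ± 0.809 and Onecut1 at 2.53 ± 1.66. The range of each gene over the 9 livers of the 3 genotypes overlapped with that of its neighbour in this order. These ranges do not compare the genes within a liver. Among the FOXA genes the order of the means was Foxa3, Foxa2, Foxa1, and this order held within every liver. The highest Foxa2 liver, Mrps12ha/ha mouse 2, had 20.8 for Foxa2 and 23.7 for Foxa3.

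**Figure D3:**
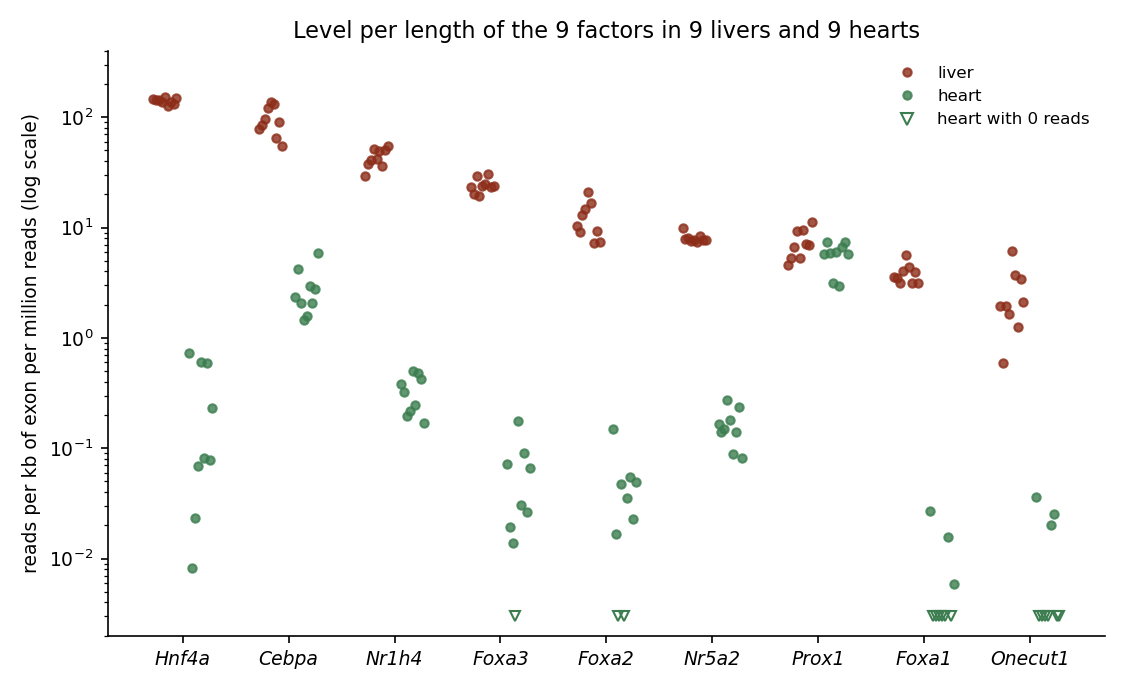
RPKM (RPM from recovered reads, divided by kilobases of exon), on a log scale, for the 9 factors in 9 livers and 9 hearts, ordered by their mean in the liver; each point is a mouse and open triangles at the bottom mark hearts with 0 reads. Prox1 is at a similar level in both tissues, Cebpa is lower in the heart, and Foxa1, Foxa2, Foxa3 and Onecut1 lie near the detection limit there.

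In the heart 4 members were below the minimum for testing. Foxa1 had 0 to 3 reads per heart and was at 0 in 6 of 9 hearts, Foxa2 had 0 to 12 reads, Foxa3 0 to 7 and Onecut1 0 to 5 with 6 hearts at 0. A count of 0 allows up to 3 reads, so these 4 genes were at or near the limit of detection. Hearts also held RNA of hepatocyte genes, and 15 hepatocyte markers together had 305 RPM in hearts and 138328 in livers, or 0.220% of the liver level. Relative to the liver, the members in the heart were at 0.139% for Foxa1, 0.347% for Foxa2, 0.227% for Foxa3, 0.191% for Hnf4a and 0.359% for Onecut1, near the share of the markers. Nr1h4 at 0.751%, Nr5a2 at 2.02%, Cebpa at 2.95% and Prox1 at 77.5% were higher. As a share of the hepatocyte marker reads, Cebpa had a median of 3.40% in hearts and 0.173% in livers, and Nr5a2 0.264% and 0.0347%. These shares compare RPM, since the normalized counts of the tissues were scaled separately.

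Hnf4a in the heart tracked the hepatocyte markers from mouse to mouse. Its normalized counts were 93.9, 12.1 and 36.5 in Mrps12+/+, 118.9, 1.2 and 3.6 in Mrps12ep/ep and 11.0, 99.7 and 13.1 in Mrps12ha/ha hearts. The marker sums of the same hearts were 20257, 6912 and 10354, then 16428, 3489 and 2517, then 3884, 19954 and 6559. The 3 hearts with the highest Hnf4a, 1 of each genotype, were the 3 with the highest marker sums. As a share of the hepatocyte marker reads, Hnf4a had a median of 0.284% in hearts (0.0332% to 0.724%) and 0.478% in livers (0.430% to 0.589%). The part of liver RNA in these values was not tested further.

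**Figure D4:**
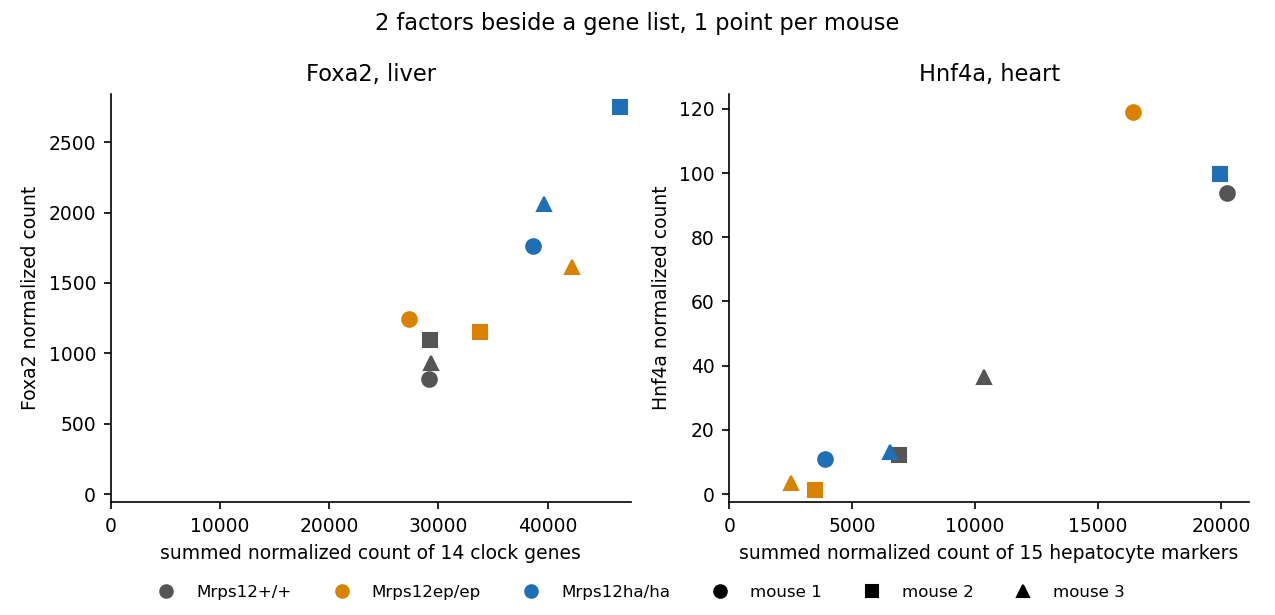
Normalized counts of Foxa2 against the summed count of 14 clock genes in 9 livers (left) and of Hnf4a against the summed count of 15 hepatocyte markers in 9 hearts (right); each point is a mouse, its colour the genotype and its shape the mouse number. On the left the Mrps12ha/ha livers and Mrps12ep/ep mouse 3 lie furthest right and highest; on the right 3 hearts, 1 of each genotype, stand above the others on both axes.

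Prox1 had the highest level of the members in the heart. PROX1 marks lymphatic endothelium and is also made in heart muscle cells. Its normalized counts were 1854.9, 1973.5 and 1564.1 in Mrps12+/+, 1634.5, 1807.5 and 1589.2 in Mrps12ep/ep and 870.7, 1706.4 and 816.7 in Mrps12ha/ha hearts. Mrps12ha/ha mice 1 and 3 lay below every other heart, and Mrps12ha/ha mouse 2, the shallowest library, lay among the controls. The log2 fold change between Mrps12ha/ha and Mrps12+/+ hearts was -0.75 (standard error 0.25, limma adjusted p = 0.213), and between Mrps12ha/ha and Mrps12ep/ep hearts -0.65 (standard error 0.25, limma adjusted p = 0.254). Without Mrps12ha/ha mouse 2 these were -1.08 and -0.99, with adjusted p-values of 0.00250 and 0.00339, but 4330 and 3730 of all genes then passed as well. Over 6 lymphatic endothelial markers, the sum was 3390 to 4297 in Mrps12+/+, 3578 to 5099 in Mrps12ep/ep and 2800 to 4081 in Mrps12ha/ha hearts. The lowest sum was that of Mrps12ha/ha mouse 2. Against Mrps12+/+ hearts 5 of the markers were lower and 1 higher in Mrps12ha/ha hearts, with a median log2 fold change of -0.50 (-0.024 over all genes). Against Mrps12ep/ep hearts the counts were also 5 and 1, with a median of -0.54 (-0.023 over all genes). The part of these markers in the result was not tested.

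The other tested members were low in the heart and did not separate the genotypes. Cebpa had 181.7 to 498.7 normalized counts in Mrps12+/+, 175.3 to 327.1 in Mrps12ep/ep and 127.0 to 257.3 in Mrps12ha/ha hearts, with a log2 fold change of -0.73 between Mrps12ha/ha and Mrps12+/+ hearts (standard error 0.41, limma adjusted p = 0.323). The 95% interval of that difference was -1.66 to 0.20, whereas that in the liver was 0.60 to 1.39, and the difference between tissues was not tested because the tables were normalized separately. Nr5a2 had 12 to 52 reads and Nr1h4 9 to 42 reads per heart. Of the 5 members tested, 0 passed by limma between Mrps12ha/ha and Mrps12+/+ hearts (0.0311% of 16057 genes), 0 between Mrps12ep/ep and Mrps12+/+ hearts (0% of genes) and 0 between the mutants (0.0249%), and limma-voom also called 0 in each. Prox1 was the 1 member with an unadjusted p under 0.05 in the comparisons with Mrps12ha/ha hearts, against 19.7% of all genes in that with Mrps12+/+ and 17.9% in that with Mrps12ep/ep hearts, and 0 members had one between Mrps12ep/ep and Mrps12+/+ hearts (1.69% of all genes). The groups did not overlap in 0 of the 5 members in any of the 3 comparisons, where 21.2%, 8.03% and 16.6% of all genes did not overlap.

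The other members of the network in the liver were read from a list of 34 further hepatocyte transcription factors, all tested. Of these, 0 passed by limma or limma-voom in any of the 3 comparisons. Between Mrps12ha/ha and Mrps12+/+ livers 6 had an unadjusted p under 0.05 and were higher, 3 were lower, where 7.07% and 7.05% of all genes were, and the median log2 fold change was 0.14. Gata4, a zinc finger partner of the FOXA factors in liver development, had 484.8, 581.4 and 437.8 normalized counts in Mrps12+/+ and 854.4, 879.8 and 911.8 in Mrps12ha/ha livers, without overlap (log2 fold change 0.82, limma adjusted p = 0.0722). Mlxipl, which encodes the carbohydrate response factor ChREBP, was higher too (log2 fold change 0.53, limma adjusted p = 0.120). The relatives of Cebpa stood lower in Mrps12ha/ha livers, with log2 fold changes of -1.21 for Cebpd and -0.59 for Cebpb (limma adjusted p = 0.0982 and 0.199). Both encode C/EBP factors of the acute phase response, and Mrps12+/+ mouse 3, the acute phase liver, had the highest value of each, 1370.5 and 5328.6. Without it the log2 fold changes were -1.0 for Cebpd and -0.47 for Cebpb (limma adjusted p = 0.0748 and 0.346).

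Of the forkhead family, 20 of 44 genes in the table were tested in the liver, the 3 FOXA genes among them. Between Mrps12ha/ha and Mrps12+/+ livers 0 passed by limma or limma-voom, 5 had an unadjusted p under 0.05 and were higher (7.07% of all genes), and 1, Foxk2, was lower with a log2 fold change of -0.66. Foxq1 had 246 ± 72.3 normalized counts in Mrps12+/+ and 1154 ± 855 in Mrps12ha/ha livers (SD, n = 3; log2 fold change 2.01, limma adjusted p = 0.133), and its highest liver was Mrps12ha/ha mouse 2. Foxk1 had a log2 fold change of 0.42 (limma adjusted p = 0.151). Among 12 coactivators and corepressors 0 passed by limma or limma-voom. At an unadjusted p under 0.05 between these groups there were 2, Ppargc1b (2.45) and Hdac3 (0.20), both higher, against 14.1% of all genes (7.07% higher). Ppargc1a (-0.48) and Ep300 (-0.16) were not among them. Ppargc1b was low, with 105.6, 150.4 and 24.5 normalized counts in Mrps12+/+ and 376.0, 556.9 and 321.3 in Mrps12ha/ha livers. Its lowest value was that of Mrps12+/+ mouse 3, the acute phase liver.

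Genes that the members are known to bind did not share a direction. Of 14 FOXA target genes, 0 passed by limma or limma-voom, 0 were higher and 4 lower at an unadjusted p under 0.05 between Mrps12ha/ha and Mrps12+/+ livers (7.07% and 7.05% of all genes), and their median log2 fold change was -0.09. The 4 were Tat (tyrosine aminotransferase, -1.51), Igfbp1 (a secreted binding protein of insulin-like growth factors, -2.02), Pdk4 (a pyruvate dehydrogenase kinase, -1.44) and Pck1 (the gluconeogenic enzyme PEPCK, -0.55), genes of the fasting programme. Tat had 220455.8, 126480.7 and 138916.3 normalized counts in Mrps12+/+, 231093.8, 185338.5 and 184606.0 in Mrps12ep/ep and 60990.8, 58175.7 and 47197.6 in Mrps12ha/ha livers. The Mrps12ha/ha livers, as a group the highest in Foxa2 RNA, were thus the lowest in Tat RNA (limma adjusted p = 0.0722 between Mrps12ha/ha and Mrps12+/+). The Mrps12ep/ep livers, also above the controls in Foxa2, were not lower in Tat, with a mean of 200346 against 161951 in Mrps12+/+ livers. Of 9 C/EBPalpha targets, 1 was higher, the glycogen synthase Gys2 (0.61), and 2 lower, Pck1 and the iron hormone Hamp (-1.0), at an unadjusted p under 0.05 (again 7.07% and 7.05% of all genes), with a median of 0.27 and 0 passing by limma or limma-voom. Ttr, the carrier of thyroid hormone, had a log2 fold change of 0.46 without reaching it.

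Of 16 HNF4A targets, 5 were higher and 0 lower at an unadjusted p under 0.05 (7.07% and 7.05% of all genes), the median log2 fold change was 0.28, and 0 passed by limma or limma-voom. The 4 with the smallest p were the carboxylesterase Ces2a (0.70), the pyruvate kinase Pklr (1.07), the coagulation factor F7 (0.32) and the apolipoprotein Apoc3 (0.52), while Hnf4a itself was at 0.07. Of 20 tested FXR target and bile acid genes, 3 were higher and 2 lower at the same threshold and against the same shares, with a median of 0.18 and 0 passing by limma or limma-voom. Cyp7a1, the rate-limiting enzyme of bile acid synthesis, had 4492.3, 2874.7 and 1593.9 normalized counts in Mrps12+/+, 879.6, 473.4 and 2630.0 in Mrps12ep/ep and 402.2, 676.4 and 758.0 in Mrps12ha/ha livers (log2 fold change -2.21, limma adjusted p = 0.169 between Mrps12ha/ha and Mrps12+/+). Among those with higher values were the bile acid ligase Slc27a5 (0.31) and the FGF co-receptor Klb (0.50). Over the 3 comparisons the target lists differed in sign, and medians between Mrps12ep/ep and Mrps12+/+ livers were -0.12 for FOXA, 0.10 for HNF4A, 0.37 for C/EBPalpha and 0.27 for FXR targets.

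The genes most like Foxa2 were named by Pearson's r of the log2 values over the 9 livers, a description that includes the genotype differences. They were Casp9 (0.993), Cxxc5 (0.974), Dusp4 (0.966), Hs6st1 (0.961) and Mms19 (0.954), and the least like were Mef2d (-0.990), Golt1b (-0.981) and Rcan1 (-0.971). Casp9 encodes an initiator caspase and had means of 895, 1113 and 1537 normalized counts in Mrps12+/+, Mrps12ep/ep and Mrps12ha/ha livers. Among the members, Cebpa had the value nearest to these, 0.95, and ranked 6 of all tested genes, while Foxa1 had 0.86, Onecut1 0.63, Hnf4a 0.35 and Foxa3 -0.00.

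Markers of other cell types and states differed between the livers too. The 14 clock genes were summed because several liver factors vary over the day. Their sum was 29146 to 29351 in Mrps12+/+, 27338, 33816 and 42209 in Mrps12ep/ep and 38671 to 46611 in Mrps12ha/ha livers, and Mrps12ep/ep mouse 3, with the highest sum of its group, had the highest Foxa2 and Cebpa of its group as well. Of the clock genes 6 had an unadjusted p under 0.05 and were higher in Mrps12ha/ha than in Mrps12+/+ livers (7.07% of all genes), 0 were lower, and 0 passed by limma or limma-voom. Per3 (1.31), Cry2 (0.64), Tef (0.51) and Dbp (1.13) had the smallest p. The part of the time of day in the values of Foxa2 was not tested.

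The liver label held against its markers, with 15 hepatocyte markers summing to 6436667 to 6759382 in Mrps12+/+, 7157032 to 7915431 in Mrps12ep/ep and 7038487 to 7509853 in Mrps12ha/ha livers. The cholangiocyte list, another cell type that makes FOXA factors, summed to 12258 in Mrps12+/+ mouse 3 through Spp1 and to 1498 to 2829 in the other livers. Epcam, a defining cholangiocyte marker, had 37.8, 63.9 and 39.1 normalized counts in Mrps12+/+, 33.7, 29.6 and 35.5 in Mrps12ep/ep and 66.6, 52.6 and 68.6 in Mrps12ha/ha livers (log2 fold change 0.44, limma adjusted p = 0.530 between Mrps12ha/ha and Mrps12+/+). Most of the list went the other way in that comparison. Of its 6 tested genes, 2 were higher and 4 lower in Mrps12ha/ha livers, and the middle of their log2 differences was -0.10. The pancreatic acinar list, from a tissue that also makes FOXA2 and NR5A2, was higher in Mrps12ha/ha (1340 to 2359) than in Mrps12+/+ livers (464 to 883), almost wholly through Cela1 (log2 fold change 1.55, limma adjusted p = 0.0851), and only 2 of its 10 genes reached the minimum for testing. Endothelial markers summed to 8214 to 14112 in Mrps12+/+ and 15115 to 16418 in Mrps12ha/ha livers, with Stab2 at a log2 fold change of 0.47 and Fcgr2b at 0.41. The stellate cell and fibroblast list was at 19510 to 23191 in Mrps12+/+ and 13202 to 18145 in Mrps12ha/ha livers, with Col1a2 at -0.88 and Col1a1 at -1.28. Kupffer cell markers overlapped, at 13996 to 38480 in Mrps12+/+ and 17050 to 33061 in Mrps12ha/ha livers. The adipocyte list, of which Car3 and Cidec are also made by hepatocytes, summed to 65222 to 208566 in Mrps12+/+, 176635 to 214744 in Mrps12ep/ep and 200579 to 236326 in Mrps12ha/ha livers. Of its genes, Cfd had 362 ± 154 normalized counts in Mrps12+/+ and 85.3 ± 34.8 in Mrps12ha/ha livers (SD, n = 3; log2 fold change -2.04, limma adjusted p = 0.106). The adipocyte hormone Lep was at 0 in all 6 mutant livers and at 30.1, 203.8 and 6.5 in Mrps12+/+ livers. The part of these cell types in the values of the members was not tested.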

How the data were processed

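Total RNA from 9 hearts and 9 livers was sequenced on a HiSeq with a TruSeq kit, as 54 libraries in the labels, with 3 technical ones per mouse in each organ. According to the methods and the submitters' processing notes, reads were trimmed with Trim Galore 0.4.1 and cutadapt 1.18, checked with FastQC 0.11.8 and assigned to GENCODE vM21 genes on GRCm38 with Salmon 1.1.0, strand included. The deposited values are other than raw counts: the authors summed Salmon estimates per gene, left out mitochondrial transcripts and divided the counts of each mouse by a DESeq2 size factor, separately for heart and liver. The 1 column per mouse and tissue was taken as the pool of its 3 technical libraries. The deposited tables of comparisons hold the authors' fold changes and p-values and were not used. All low values were whole multiples of 1 step within a tolerance of 0.1, and dividing by the step gave recovered reads.

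Values were fitted on the scale log2(normalized count + 1), which understates folds of low genes, with limma 3.58.1 (lmFit and eBayes with a trend, R 4.3.3), with all 9 mice of a tissue in 1 fit. Genes with a mean of at least 10 were tested, and the Benjamini-Hochberg adjustment ran over every tested gene with a threshold of 0.05. The fit was tested on simulated data, drawn independently with the same extra spread for every gene and no outlying mice. That test therefore does not show how the fit behaves with the outlying mice of these data. Exact permutation tests were two-sided on the difference of means. The p-values take the mice as independent, and the labels do not say whether they were littermates. If they were, the p-values may be too small. In the limma fit the variance of a gene was estimated over all 3 genotypes and moderated towards a trend over all genes. The limit of 3 reads applies to a count of 0 only, and the counting error of low counts above 0 was not given separately. The comparisons of either mutant with Mrps12+/+ share the control mice. All 9 members were described in each comparison, of each further list the 4 genes with the smallest p between Mrps12ha/ha and Mrps12+/+ livers (2 for cell type markers), and for Foxa2 the 5 genes with the highest and the 3 with the lowest r. One gene that this rule names is not reported here. The members and lists were chosen with earlier results of these data known. Lists of adipocyte, cardiomyocyte, lymphatic endothelial and lung epithelial markers were also summed, and lung epithelial markers summed to 79 to 264 in all livers. The remaining steps ran in Python 3.11.15 (scipy 1.17.1, pandas 2.3.3, numpy 2.4.6).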

Additional observations from a re-analysis of the deposited data

How the results depend on the processing

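Each result was recomputed with limma-voom on recovered reads, array weights, the replicate block, quantile normalization, every mouse re-centred, a fit of only 2 genotypes, no filter or a minimum mean of 50, and other pseudocounts (0.1, 8), and after leaving out each mouse. The planned edgeR and DESeq2 fits on recovered reads were not run. Of the log2 fold changes under these, 616 kept their direction and side of the threshold, 6 passed the threshold that had not, and 41 changed sign, none of them for Foxa2, or for Cebpa or Foxa1 between Mrps12ha/ha and Mrps12+/+ livers. The cause was not tested.

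Whether mouse numbers pair the mice was not settled, and the main fits treated them as unpaired. In livers, correlations of deviations from the group means were -0.133 to 0.164 for the same number and -0.289 to 0.161 for different numbers. In hearts they were -0.231 to 0.578 and -0.593 to 0.345. The highest in hearts were of the same number, 0.578 and 0.409 for mice 1 and 2 of Mrps12+/+ and Mrps12ep/ep. The replicate block called 0 members in every comparison (Foxa2 adjusted p = 0.0833 between Mrps12ha/ha and Mrps12+/+ livers by limma). Between Mrps12ha/ha and Mrps12+/+ livers, quantile normalization gave Hnf4a -0.00 and Nr5a2 0.02, re-centring gave Prox1 0.02 and Nr5a2 0.03, and array weights gave Prox1 0.17. Array weights gave Foxa1 -0.02 and Foxa3 0.05 between Mrps12ep/ep and Mrps12+/+ livers, Nr5a2 -0.19 between Mrps12ha/ha and Mrps12+/+ hearts, and Cebpa 0.13 and Nr5a2 -0.20 between the mutant hearts. With array weights 1 member, Prox1, was called in each comparison with Mrps12ha/ha hearts (log2 fold changes -1.04 and -0.89), and 34.7% and 39.3% of all genes.

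Without 1 mouse in turn, members called numbered 0 to 2 between Mrps12ha/ha and Mrps12+/+ livers and 0 to 1 in each comparison with Mrps12ha/ha hearts, the 1 being Prox1 without Mrps12ha/ha mouse 2. Members that did not overlap numbered 2 to 4 between Mrps12ep/ep and Mrps12+/+ livers (4 without Mrps12+/+ mouse 1) and 4 to 7 between the mutant livers (7 without Mrps12ha/ha mouse 2). In hearts they numbered 0 to 1 for Mrps12ha/ha against Mrps12+/+, 0 to 2 for Mrps12ep/ep against Mrps12+/+ and 0 to 2 for the mutants. With all mice, 12.8%, 17.8%, 21.2%, 8.03% and 16.6% of all genes did not overlap in these comparisons, in the same order. With fewer mice groups of any gene separate more readily. The shares of all genes without 1 mouse were not computed, so these counts cannot be read as a result about the members. In the same fits, log2 fold changes between Mrps12ha/ha and Mrps12+/+ livers ranged from -0.19 to 0.04 for Foxa3, -0.04 to 0.17 for Hnf4a, -0.17 to 0.26 for Prox1, -0.06 to 0.03 for Nr5a2 and -0.10 to 0.28 for Nr1h4. Between Mrps12ep/ep and Mrps12+/+ livers they were -0.04 to 0.16 for Foxa1 and -0.20 to 0.06 for Foxa3, and between the mutant livers -0.17 to 0.09 for Foxa3 and -0.15 to 0.03 for Hnf4a. In hearts they were -1.47 to 0.22 for Hnf4a, -0.12 to 0.68 for Nr5a2 and -0.52 to 0.21 for Nr1h4 between Mrps12ha/ha and Mrps12+/+, -0.59 to 0.14 for Cebpa, -0.31 to 0.42 for Nr5a2 and -0.64 to 0.09 for Nr1h4 between Mrps12ep/ep and Mrps12+/+, and -0.16 to 0.62 for Nr5a2 and -0.25 to 0.35 for Nr1h4 between the mutants. Depth limits the heart values of Foxa1, Foxa2, Foxa3 and Onecut1, which had at most 12 reads per heart.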
